A study of Saccharomyces cerevisiae with 4 samples.

Results

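Whole-cell extract (WCE) DNA, the input of a chromatin immunoprecipitation on microarrays, was compared between a Saccharomyces cerevisiae strain carrying TAP-tagged Rpb4 and one carrying TAP-tagged Rpb3, with the immunoprecipitate channel left aside. Both strains are labelled S288c, and each tag strain was measured on 2 arrays. Cultures of either strain grew in YPD at 25°C to log phase (OD600 about 0.8) and were crosslinked with 1% formaldehyde for 20 min, and shearing left chromatin fragments near 400 to 500 bp. The input DNA carried Cy3 on all 4 arrays, so dye and channel were the same in every comparison. The probes kept were those of the nuclear genome outside chromosome 9, which gave 39968 of the 41775 data probes. Probes were 60 nucleotides long and about 290 bp apart, and by the array's annotation 29089 lay inside genes (72.8%), 5676 in promoters of 1 gene, 3251 in divergent promoters shared by neighbours, 1841 downstream of genes and 111 in no named class.

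Rpb3 and Rpb4 are subunits of RNA polymerase II: Rpb3 belongs to the assembly core of the enzyme, while Rpb4 pairs with Rpb7 in a stalk that can leave it. Input DNA stands for the sheared genome before immunoprecipitation and is the denominator of a ChIP ratio. It carries the copy number of each locus, including deleted markers and missing subtelomeric genes, and also how well a stretch of crosslinked chromatin is broken, extracted and labelled. Neither feature can be told apart from the other by array signal alone.

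Each value below is a log2 level, the background-subtracted WCE intensity of a probe relative to the median data probe of the same array, and a difference is Rpb4 minus Rpb3. The median WCE foreground was 151 to 168 times the background, and no unflagged probe fell to or below background. Over 39952 probes measured on all arrays, the correlation across probes was 0.984 between the Rpb4 arrays and 0.978 between the Rpb3 arrays, against 0.899 to 0.946 between arrays of different strains. Nothing in the labels ties the arrays of a strain to separate cultures, so p-values measure the spread between these arrays, which may be technical, and their number limits the precision. All 4 arrays lay on 1 slide, per the file headers, with the Rpb4 arrays at positions 3 and 4 and the Rpb3 arrays at positions 1 and 2, so slide position and strain cannot be told apart.

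Most input DNA was alike in both strains. Of the 39952 probes, 94.6% differed by less than 0.25 (log2). At an adjusted p of 0.05 (limma, Benjamini-Hochberg over all data probes), 1207 probes were higher in Rpb4, 3.02% of those tested, and 751 were lower, 1.88%. The adjustment took in chromosome 9 and mitochondrial probes, many of which differed. Adjusted over the 39952 member probes alone, 846 were higher in Rpb4 and 494 lower. Of the higher probes 577 had no neighbouring probe called the same way, and of the lower probes 296 had none. The counts depended on single arrays, with 5264 probes higher and 2901 lower without Rpb3 array 1, and 692 higher and 339 lower without Rpb4 array 2. The isolated probes lay inside genes in 38.6% of the higher and 83.1% of the lower cases. Of all called probes, 582 of the 1207 higher and 638 of the 751 lower lay inside genes.

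A few loci gave much less input DNA in one strain, and some of these gave almost none. Probes that passed the test and differed over 4-fold numbered 44 higher in Rpb4, at 15 loci, and 14 lower, at 3 loci. The average given for a locus is over such probes alone. The longest stretch was a subtelomeric one on chromosome 7 (positions 1277 to 6282 as the array gives them, build not given in the sources used here), where 17 probes over COS12, a member of a subtelomeric multigene family, YGL262W and the start of PAU11, a seripauperin gene, averaged -0.48 and -0.45 in the Rpb4 arrays, against -7.07 and -4.59 in the Rpb3 arrays. The mean difference there was 5.37. Both Rpb4 arrays sat near the median probe and both Rpb3 arrays far below it.

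A further 7 groups of at least 2 neighbouring probes were low in the Rpb3 arrays. Near YHL008C on chromosome 8 (91729 to 94909), 5 probes averaged -0.59 and -0.55 in the Rpb4 arrays and -5.73 and -4.13 in the Rpb3 arrays. Some other YHL008C probes within these positions differed little, and the gene's mean difference over its 7 inside probes was 1.50. Upstream of IPP1, the inorganic pyrophosphatase gene, on chromosome 2 (258779 to 259094), 2 probes averaged -1.26 and -1.18 in the Rpb4 arrays, against -6.78 and -5.62 in the Rpb3 arrays. The remaining ones lay at YBR013C on chromosome 2, beside GEX1 at the left end of chromosome 3, at YLR162W on chromosome 12, inside PGA3 and around PAU19 on chromosome 13. Their mean differences were 5.35, 3.99, 4.82, 2.31 and 2.77 in that order. Not all of them were empty. PGA3 kept a median of 17.8% and 23.4% of the Rpb4 level in Rpb3 arrays 1 and 2, and PAU19 kept 14.8% and 20.2%. The other 7 loci each had 1 probe that differed over 4-fold, but such a probe did not always stand alone. The YCS4 probe lay among 6 consecutive called probes on chromosome 12 (687651 to 689092), all higher in Rpb4. The YLR157W-C probe and those at YLR162W, counted here as separate loci, belonged to 1 series of 4 consecutive called probes (475950 to 489730). Most of the 7 loci also kept signal in the Rpb3 arrays, such as 24.6% and 24.2% at YCS4, while YLR157W-C kept 2.12% and 17.8%. YAP3 was dim in both strains, at -5.15 and -5.16 in the Rpb4 arrays. COS and PAU genes, GEX1, PRM8 and MST27 have close copies elsewhere in the genome, so a probe there may also read DNA of a copy.

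In the other direction, 3 loci were nearly empty in the Rpb4 strain. TRP1 and the adjoining promoter of GAL3 on chromosome 4 (461832 to 463218) averaged -4.02 and -6.46 in the Rpb4 arrays, against 0.08 and 0.06 in the Rpb3 arrays over 6 probes. HIS3 and the adjoining promoter of DED1 on chromosome 15 (721966 to 722757) averaged -4.80 and -8.52 in the Rpb4 arrays and -0.62 and -0.60 in the Rpb3 arrays over 3 probes. TRP1 encodes phosphoribosylanthranilate isomerase and HIS3 imidazoleglycerol-phosphate dehydratase, and both are common selectable markers. The third locus, on chromosome 7 (402352 to 405247), had 1 probe inside PRM8, a pheromone-regulated gene of the same family as MST27, and 4 flanking probes annotated to ERV14, MST27 or TYW3, and averaged -4.97 and -7.19 in the Rpb4 arrays, against -0.71 and -0.88 in the Rpb3 arrays over 5 probes.

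At the emptiest of these loci the signal left differed between the arrays of a strain in a fixed way. Over the 11 probes lower in Rpb4 by more than 16-fold, Rpb4 array 1 kept a median of 4.69% of the Rpb3 level and Rpb4 array 2 kept 0.54%. Over the 27 probes higher in Rpb4 by more than 16-fold, Rpb3 array 1 kept 1.01% of the Rpb4 level and Rpb3 array 2 kept 5.85%. Array 2 was the lower Rpb4 array at 11 of 11 probes, and array 1 the lower Rpb3 array at 27 of 27. The arrays with more signal left, Rpb4 array 1 and Rpb3 array 2, lay at neighbouring positions 3 and 2 of the slide, and the part of that in the signal was not tested. Blank spots read 57 to 58 intensity units at the median in the Rpb4 arrays and 59.8 to 63 in the Rpb3 arrays, with 95th percentiles from 134 to 166. The median foreground of the emptied probes was 397 and 90 in Rpb4 arrays 1 and 2, and 126 and 574 in Rpb3 arrays 1 and 2. Fold changes at the emptiest loci therefore rest on signals near those of blank spots on 1 array of each strain.

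**Figure D1:**
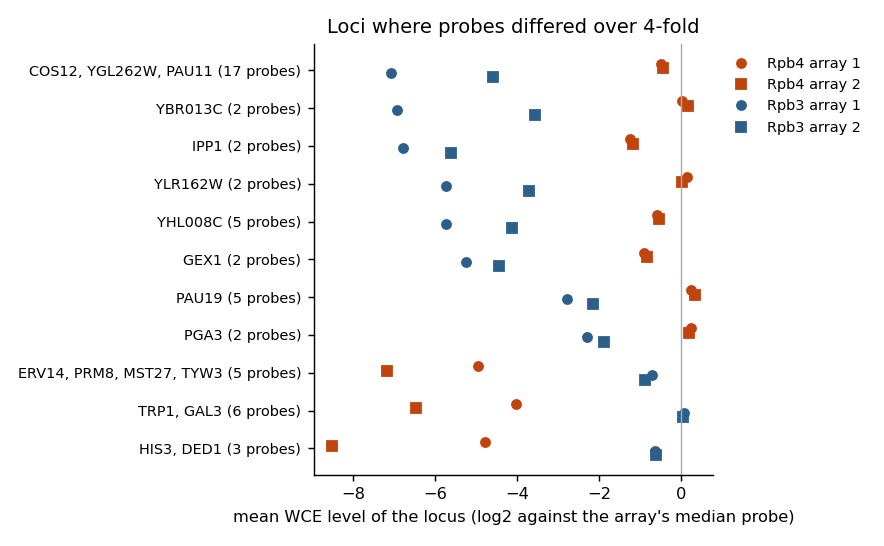
Mean WCE level (log2 against the array's median probe) of the 11 loci where at least 2 neighbouring probes differed over 4-fold, with 1 point per array, Rpb4 in red and Rpb3 in blue. Levels are means over those probes alone. Loci were chosen for a called difference over 4-fold on these arrays, so the Rpb4 and Rpb3 arrays lie apart by that choice. At the emptiest of them Rpb4 array 1 and Rpb3 array 2 keep more signal than the other array of their strain.

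The tagged genes and the usual strain markers were read as a check of the strains. RPB4 had levels of -0.48 and -0.53 in the Rpb4 arrays, against -0.68 and -0.63 in the Rpb3 arrays. The arrays did not overlap, but the difference of 0.15 did not pass over all genes (adjusted p = 0.0560, limma), although it did without probes under 10 times the background (adjusted p = 0.0427). RPB3 lies on chromosome 9 and is no member. Over the inside probes alone, TRP1 passed with a difference of -5.59 ± 1.02 (SE; adjusted p = 0.0408), while HIS3 at -6.42 ± 1.37 did not (adjusted p = 0.0630), its Rpb4 arrays being far apart at -4.75 and -8.95. LYS2 was higher in Rpb4 by 0.59, MET17 by 0.26 and LEU2 by 0.24, while URA3 was lower at -0.18 and ADE2 at -0.14. For HO and CAN1 the differences were 0.02 and -0.03. Apart from TRP1 and HIS3, the markers gave clear input DNA in both strains.

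At the level of whole genes, 184 of 5277 were higher in Rpb4 (3.49%) and 124 were lower (2.35%), each gene taken as the mean of its inside probes, of which it had a median of 5. The adjustment also took in genes of chromosome 9, where most probes were lower in Rpb4. It was not repeated over these 5277 genes alone, so some gene calls here and in the lists below may not hold over them. The median absolute difference between strains was 0.045, against 0.025 between the Rpb4 arrays and 0.042 between the Rpb3 arrays. Beyond 1.5-fold, 20 genes were higher and 8 lower. As with the probes, these counts moved with single arrays. They were 396 higher and 398 lower without Rpb3 array 1, 190 and 87 without Rpb3 array 2, 87 and 90 without Rpb4 array 1, and 75 and 39 without Rpb4 array 2.

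Enzymes of lysine synthesis stood among the largest gains. LYS20 (YDL182W, chromosome 4, probes from 133412 to 134674), a homocitrate synthase gene at the entry of the pathway, had levels of 0.28 and 0.30 in the Rpb4 arrays, against -1.09 and -1.33 in the Rpb3 arrays, a difference of 1.50 ± 0.08 (SE; adjusted p = 0.0018). LYS9 (YNR050C, chromosome 14, probes from 714071 to 715079), a saccharopine dehydrogenase gene, had 0.47 and 0.48 in the Rpb4 arrays, against -0.62 and -0.63 in the Rpb3 arrays. Both genes were chosen for their large difference, and the groups were apart by far more than the arrays of a strain. LYS21 (YDL131W, chromosome 4, probes from 227505 to 228690), the second homocitrate synthase gene, had 0.32 and 0.31 in the Rpb4 arrays and -0.45 and -0.50 in the Rpb3 arrays. In each of these 3 lysine genes the Rpb4 arrays lay above the median probe and the Rpb3 arrays below it.

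Other genes with large gains were of varied function. COS12 differed by 5.93 and YHL008C by 1.50, both at the loci described above. PGA3, a cytochrome b5 reductase gene, differed by 0.96, with 2.54 and 2.07 at 2 of its probes and 0.01 to 0.11 at the other 3. GRE2 (YOL151W), a methylglyoxal reductase gene, had 0.10 and 0.12 in the Rpb4 arrays, against -0.65 and -0.67 in the Rpb3 arrays. YHB1, the flavohaemoglobin gene that detoxifies nitric oxide, differed by 0.68, RIB5, the riboflavin synthase gene, by 0.63, ARG4, the argininosuccinate lyase gene, by 0.63 and ATR1, a drug efflux transporter gene, by 0.61. These genes were chosen as the largest called gains, so the Rpb4 and Rpb3 arrays lay apart at each by that choice.

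Among the genes lower in Rpb4, after TRP1, MDH2 came next. The gluconeogenic MDH2 (YOL126C), which encodes cytosolic malate dehydrogenase and was probed on chromosome 15 from 82055 to 82924, had -0.64 and -0.78 in the Rpb4 arrays, against 0.32 and 0.31 in the Rpb3 arrays, a difference of -1.02 ± 0.05 (SE; adjusted p = 0.0018). URA1 (YKL216W), which encodes the dihydroorotate dehydrogenase of pyrimidine synthesis and was probed on chromosome 11 from 25188 to 25971, had -0.53 and -0.65 in the Rpb4 arrays, against 0.24 and 0.26 in the Rpb3 arrays. ADE17 (YMR120C, chromosome 13), a gene of late purine synthesis, had -0.36 and -0.44 in the Rpb4 arrays and 0.24 and 0.30 in the Rpb3 arrays. For all 3 genes the Rpb4 arrays lay below the median probe and the Rpb3 arrays above it. GLN1, the glutamine synthetase gene, differed by -0.63. The glycolysis and fermentation genes TDH1, ENO1, ADH1 and HXK1 differed by -0.60, -0.60, -0.60 and -0.54. TIP1 and SED1, genes of cell wall mannoproteins, differed by -0.54 and -0.53 and PDR15, an ABC transporter gene, by -0.52.

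**Figure D2:**
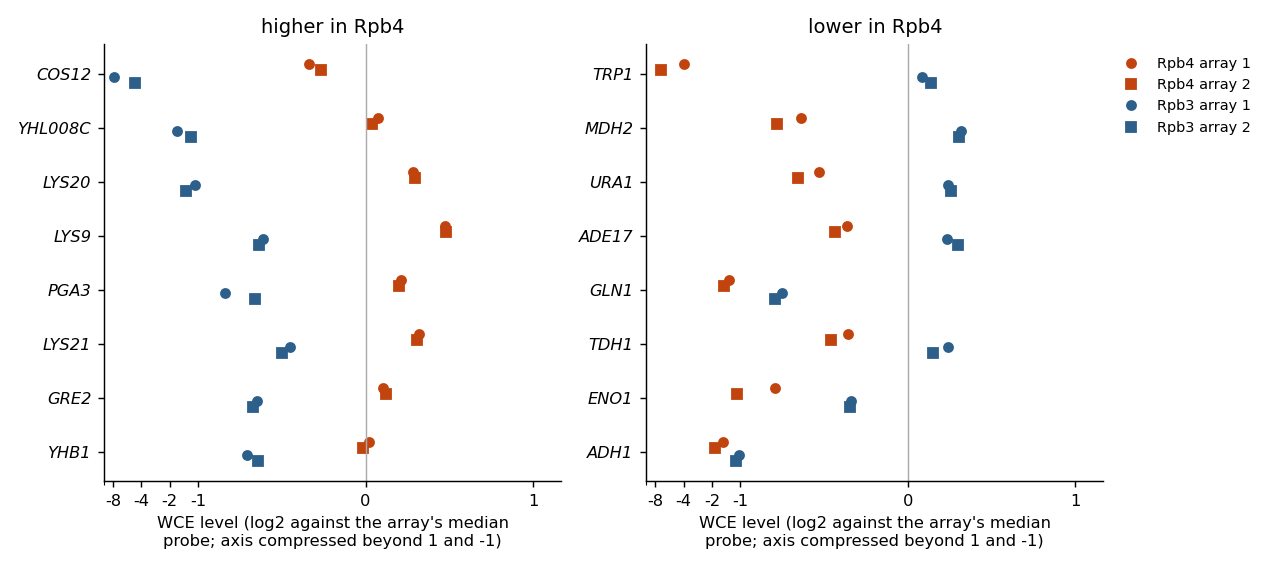
WCE level (log2 against the array's median probe, axis compressed beyond 1 and -1) of the genes that passed the test with the greatest gain (8) and the greatest deficit (8) in Rpb4, with 1 point per array, Rpb4 in red and Rpb3 in blue. The genes were chosen for called differences on these arrays, so the Rpb4 and Rpb3 arrays lie apart by that choice. LYS20, LYS9 and LYS21 lie on opposite sides of the median probe in the strains, as do MDH2, URA1 and ADE17.

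Many genes of amino acid synthesis were higher in Rpb4. The lists here and below were chosen with earlier results of these data known, so their counts are a description. Of 66 genes in 6 pathways, 29 were higher and 1, TRP1, was lower. The median difference was 0.13 over the 66, against 0.01 over all 5277 genes. Without the strain marker genes among them, 26 of 61 were higher and none lower. The TRP1 call was lost with scale or cyclic loess normalization. Over all genes 3.49% were higher and 2.35% lower. The number higher of the 66 ranged from 19 to 36 as single arrays were left out, being 19 without either Rpb4 array. In lysine synthesis 5 of 7 measured genes were higher and none lower, with a median of 0.59, and the count stayed at 5 with any array left out. Besides the genes above, these were LYS2, the aminoadipate reductase gene, with 0.15 and 0.18 in the Rpb4 arrays and -0.43 and -0.42 in the Rpb3 arrays, and LYS4, the homoaconitase gene, with a difference of 0.32. LYS5, whose product activates Lys2, had a difference of 0.01 that did not pass.

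In arginine synthesis 6 of 9 genes were higher and none lower, with a median of 0.30. CPA1, which encodes a subunit of carbamoyl phosphate synthetase, had -0.06 and -0.04 in the Rpb4 arrays, against -0.67 and -0.55 in the Rpb3 arrays. ARG2, the acetylglutamate synthase gene, had the smallest difference of the pathway at 0.06, which did not pass. In branched-chain synthesis 9 of 11 genes were higher, with a median of 0.24. BAT1, the mitochondrial aminotransferase gene, differed by 0.47 and ILV2, the acetolactate synthase gene, by 0.39, whereas BAT2, the cytosolic aminotransferase gene, differed by -0.14 and did not pass. The 9 became 2 without Rpb4 array 1 and 3 without Rpb4 array 2.

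The remaining amino acid pathways had fewer calls. In histidine synthesis 3 of 5 genes were higher, HIS4 by 0.52, HIS1 by 0.35 and HIS7 by 0.13. In sulfur amino acid synthesis 4 of 20 were higher, among them MET6, the methionine synthase gene, by 0.50 and HOM2, an aspartate pathway gene, by 0.46, while MET8 differed by -0.08 and did not pass. In aromatic synthesis 2 of 14 were higher, ARO4 by 0.38 and ARO3 by 0.37, the genes of the isozymes that open the pathway. The sulfur count was 8 and the aromatic count 6 without Rpb3 array 2, and the aromatic count was 5 without Rpb3 array 1 and 1 without Rpb4 array 2.

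Genes of glycolysis and fermentation went the other way. Of 19 genes, 7 were lower in Rpb4 and none higher, 19 of 19 differences were below 0, and the median was -0.32. Over all 5277 genes 2.35% were lower and 2371 were below 0. TDH1 (YJL052W, chromosome 10, probes from 338101 to 338756), a glyceraldehyde-3-phosphate dehydrogenase gene, had -0.36 and -0.46 in the Rpb4 arrays, against 0.24 and 0.15 in the Rpb3 arrays. ENO1, an enolase gene, had -0.79 and -1.10 in the Rpb4 arrays, against -0.34 and -0.34 in the Rpb3 arrays. ADH1, the fermentative alcohol dehydrogenase gene, had -1.52 and -1.84 in the Rpb4 arrays and -1.04 and -1.12 in the Rpb3 arrays. At all 3 genes, each called lower, Rpb4 array 2 was the lowest array.

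HXK1 and GLK1, genes of glucose-phosphorylating kinases, differed by -0.54 and -0.45, GPM1 by -0.32 and PFK1 by -0.21. Among members that did not pass, TDH3 was at -0.21, PDC1 at -0.099 and PDC5 at -0.034. The median was -0.11 with normexp background correction, with 5 genes lower, and between -0.41 and -0.23 with an array left out, with 5 to 12 genes lower, the 12 being without Rpb4 array 1.

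Genes of nucleotide synthesis also included many with less input DNA in Rpb4. Of 24 purine and pyrimidine genes, 11 were lower and none higher, with a median of -0.12, against 2.35% lower and 3.49% higher over all 5277 genes. URA1 and ADE17 differed most, followed by ADE1 with -0.37, URA2 with -0.30 and ADE4 with -0.26. IMD2, an IMP dehydrogenase gene, and ADE8 had the largest positive differences, 0.14 and 0.12, and did not pass. The 11 became 5 without Rpb4 array 1 and 4 without Rpb4 array 2.

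Of 36 stress response genes, 8 were lower and 1, GRE2, was higher, against 2.35% lower and 3.49% higher over all 5277 genes. The lower ones held the trehalose synthesis genes TPS1, TPS2 and TSL1 at -0.38, -0.39 and -0.38, the glycerol synthesis gene GPD1 at -0.40 and the disaggregase gene HSP104 at -0.37. SOD1, superoxide dismutase, differed by 0.11 on its 1 probe and did not pass. The 8 became 3 without Rpb4 array 2 and 5 without Rpb3 array 2. Of 16 multidrug resistance genes, 3 were higher (TPO1 by 0.41, YOR1 by 0.31 and PDR16 by 0.30) and 3 lower (PDR15, PDR3 at -0.34 and PDR12 at -0.21). The list thus held as many calls in one direction as in the other, and it had 5 lower without Rpb3 array 1.

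Meiosis and sporulation genes, which are little expressed in growing cells, had small positive differences. Of 54 genes, 4 were higher and none lower, 48 of 54 were above 0, and the median was 0.08. Over all 5277 genes 3.49% were higher and 2906 were above 0. SPS22 differed by 0.23 and CDA1, a chitin deacetylase gene of the spore wall, by 0.21, while IME4 differed by -0.07 and did not pass. The 4 became 20 without Rpb3 array 1, 2 without Rpb3 array 2 and 0 without either Rpb4 array, in the same limma fit.

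Most other groups were near the background in calls, which was 3.49% of all 5277 genes higher and 2.35% lower. Of 123 cytosolic ribosomal protein genes, 4 were higher and 1 lower, with RPS30A the largest at 0.38 on its 1 probe. RPL10 differed by 0.17 and RPL8A by -0.28, and neither passed. Without Rpb3 array 1 the counts were 8 higher and 11 lower, and without Rpb4 array 1, 1 and 1. No ribosomal protein gene was higher with quantile, scale or cyclic loess normalization, where the median of the list lay between -0.07 and -0.056, against 0.01 as measured, so its direction depended on the scaling. Of 63 mitochondrial ribosomal protein genes, 2 were higher, MRPL15 by 0.59 and MRP2 by 0.31, while MRPS12 differed by -0.37 and did not pass, and without Rpb3 array 1 the counts were 4 higher and 3 lower. Of 10 genes for RNA polymerase II subunits none passed in limma (5 at an unadjusted p under 0.05, against 1222 of all 5277 genes). RPB11 differed by 0.15 and RPO21, the largest subunit's gene, by -0.13. Of 32 proteasome genes RPN4, which encodes the transcription factor of the proteasome genes, was higher by 0.39 and RPT6 lower at -0.17, while PRE1 differed by 0.08 and RPN10 by -0.21 without passing. The lower count was 7 without Rpb3 array 1 and 0 without any other array, so the RPT6 call was lost there.

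Of 38 DNA replication and repair genes 1 passed, RNR1, the large subunit of ribonucleotide reductase, at -0.23, with ORC3 at 0.07 and POL30 at 0.06 not passing. None of 7 histone genes passed in limma (0 at an unadjusted p under 0.05), with HHT1 at 0.10, HTB2 at 0.03 and HTA1 at -0.12. Of 21 pheromone and mating genes KAR4 was higher by 0.17 and STE2, the receptor for alpha-factor, lower at -0.27, as was STE6 at -0.18, and FUS2 differed by 0.11 without passing. Of 28 flocculation and sugar transport genes HXT1 was higher by 0.13, while HXT14 at 0.13 and GAL2 at -0.08 did not pass. Of 11 tandem and multicopy genes AAD6 was higher by 0.24, with ENA5 at 0.20 and SNZ3 at -0.16 not passing. None of 3 genes at the mating type loci passed in limma (1 at an unadjusted p under 0.05), HMRA1 and BUD5 differing by 0.07 and 0.10 and TAF2 by -0.02. The single calls in these lists were easily lost. RNR1 did not pass without Rpb3 array 1, Rpb3 array 2 or Rpb4 array 2, KAR4 and AAD6 without either Rpb4 array, STE2 without Rpb4 array 2, and HXT1 with any of the 4 arrays left out. No pheromone or mating gene passed without Rpb4 array 2.

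**Figure D3:**
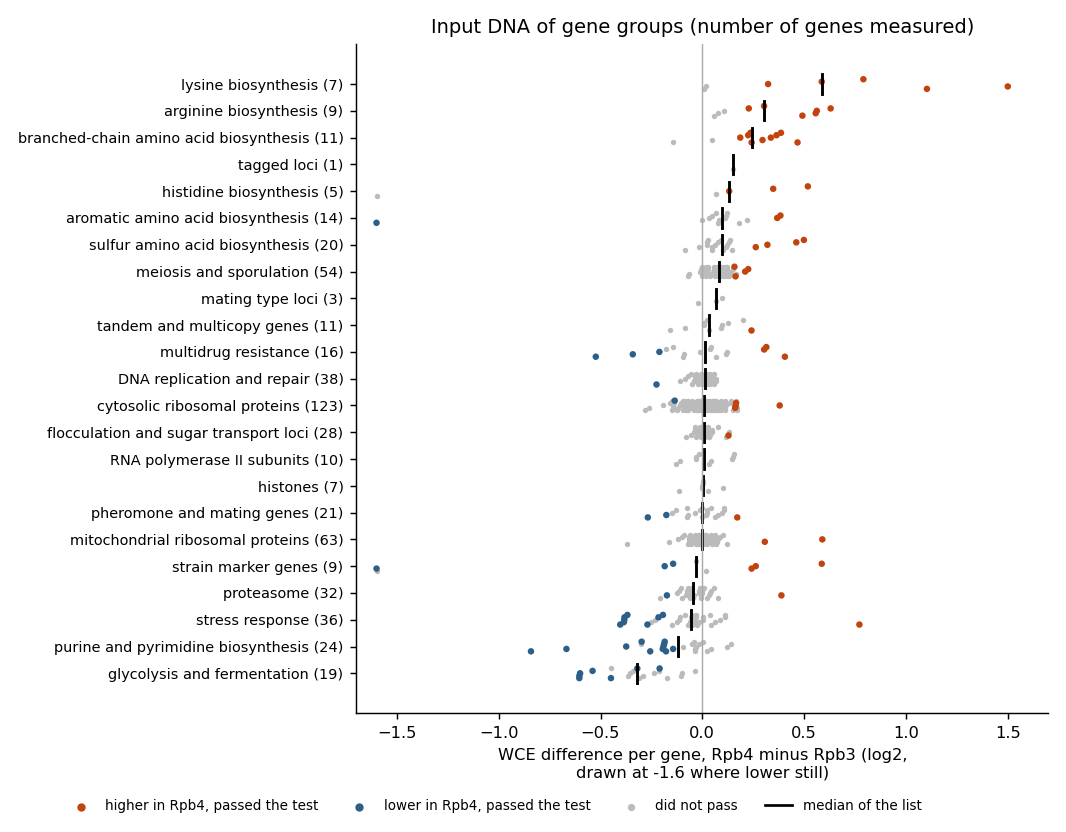
Difference in WCE level per gene, Rpb4 minus Rpb3 (log2), for each gene group, with 1 point per gene, red or blue where it passed the test and grey where it did not, and a bar at the median. The medians of lysine, arginine and branched-chain synthesis lie furthest to the right of 0, those of glycolysis and nucleotide synthesis furthest to the left, and HIS3 and TRP1 are drawn at the left edge.

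Along genes, the called genes differed in where the difference ran. For the 124 genes lower in Rpb4, the mean difference was -0.007 in the 250 bp upstream of the gene start and -0.23 in the 250 bp downstream of it, and it lay between -0.34 and -0.27 from there to 3000 bp. Their promoter probes had a median of 0.01, against 0.08 for all promoter probes, and their downstream probes a median of -0.02, against 0.09 for all downstream probes. For the 184 genes higher in Rpb4, the mean was 0.42 in the 250 bp upstream and 0.38 in the 250 bp inside, with medians of 0.23 and 0.25. Their promoter probes had a median of 0.20 and their downstream probes 0.15. The inside values of the called genes chose them and are a description, while the promoter and downstream probes were not used in the call.

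MDH2 and URA1 show the edge at single probes. The difference at MDH2 was -0.05, 0.04 and -0.15 at its 3 divergent promoter probes, then -0.70, -1.13, -1.01 and -1.25 along the gene from start to end, and -0.69 downstream. None of the promoter probes passed, and all inside probes and the downstream probe did. At URA1 the differences were 0.04, -0.03, -0.15 and -0.15 at promoter probes toward the start, then -0.46, -0.93 and -1.13 inside and -0.40 downstream. LYS9, in the opposite direction, had 1.29, 1.07, 0.92 and 1.13 inside from start to end and 0.50 at the promoter probe nearest the start. The next LYS9 promoter probe upstream differed by 0.05 and did not pass.

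**Figure D4:**
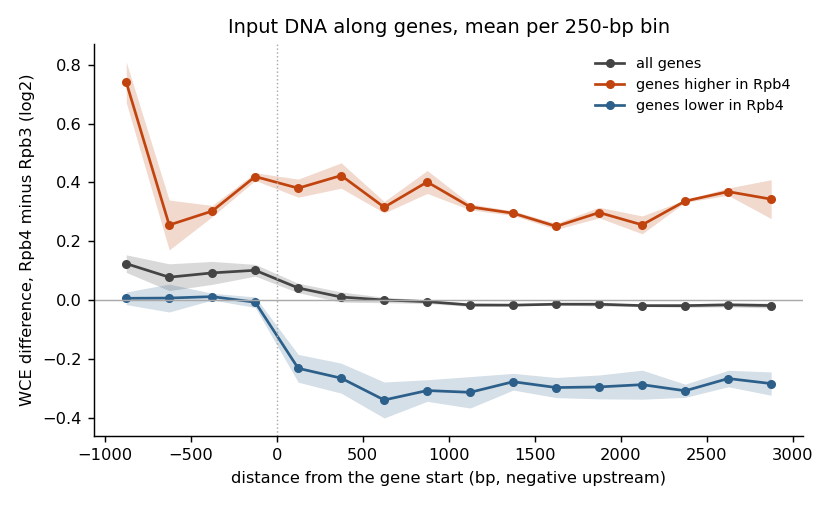
Mean difference in WCE level, Rpb4 minus Rpb3 (log2), in 250-bp bins of distance from the gene start, for all genes, the 184 higher in Rpb4 and the 124 lower in Rpb4, with shading for the range over the 4 pairs of an Rpb4 and an Rpb3 array. The curve of the lower genes leaves 0 at the gene start, that of the higher genes is already at 0.42 upstream of it, and that of all genes declines from 0.10 upstream to below 0 inside.

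Over all genes, the mean difference was 0.10 in the 250 bp upstream of the start, 0.04 in the first 250 bp of the gene, 0.01 in the next and between -0.02 and -0.01 from 1000 bp on. In 3405 genes with at least 4 inside probes, cut into 10 bins of relative position, the difference was 0.04 in the first bin and -0.03 in the ninth, with 0.002 in the last. The level of the part nearer the 3' end minus that nearer the 5' end had medians of -0.14 and -0.13 in the Rpb4 arrays, against -0.10 and -0.10 in the Rpb3 arrays. The median difference was -0.027, with a range from -0.027 to -0.025 over the 4 pairs of arrays, and 33.3% of genes were above 0. By gene, 13 were higher in Rpb4 (0.382%) and 39 lower (1.15%). Leaving out Rpb3 array 1 gave 64 and 194, and leaving out Rpb3 array 2 gave 11 and 24. Leaving out Rpb4 array 1 gave 4 and 6, and leaving out Rpb4 array 2 gave 2 and 4.

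The largest 3' minus 5' difference was at a locus already described. YHL008C, at -2.88, had input DNA in the Rpb3 arrays in its 3' part and little in its 5' part. Its inside probes differed by -0.12, -0.006, -0.30, 1.71, 1.26, 3.00 and 4.97 from the 3' end to the 5' end. NEJ1, a gene of DNA end joining, differed by -0.54, APE1, an aminopeptidase gene, by -0.50 and ARV1 by -0.41. YSC83 differed by 0.55, CAT8, the activator gene of gluconeogenesis, by 0.50, YLR345W by 0.35 and PHO84, a phosphate transporter gene, by 0.34. In CAT8, 1 of 16 inside probes differed over 4-fold, by 2.43.

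Promoters carried relatively more input DNA in Rpb4 than gene bodies did. Promoter probes averaged -0.48 and -0.47 in the Rpb4 arrays, against -0.55 and -0.60 in the Rpb3 arrays, a difference of 0.10 in means of -0.47 ± 0.01 and -0.57 ± 0.03 (SD, n = 2 each). Divergent promoter probes averaged -0.15 and -0.15 in the Rpb4 arrays and -0.23 and -0.27 in the Rpb3 arrays, and downstream probes -0.91 and -0.85 in the Rpb4 arrays and -0.93 and -1.04 in the Rpb3 arrays, with differences of 0.10 for each. The downstream difference was 0.052 without Rpb3 array 2 and 0.16 without Rpb3 array 1. Inside probes averaged 0.02 and 0.02 in the Rpb4 arrays, against 0.02 and 0.03 in the Rpb3 arrays. The groups were apart in all 3 intergenic classes and overlapped inside genes. With 4 arrays an exact two-sided permutation test cannot go below 0.333, the value it gave for each intergenic class, and it gave 1 for inside probes.

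By probe, 340 of 5666 promoter, 177 of 3250 divergent promoter and 99 of 1839 downstream probes were higher in Rpb4, against 582 of 29086 inside probes. Lower in Rpb4 were 69 promoter, 17 divergent promoter and 23 downstream probes, against 638 inside probes. Signal level moved with the difference: with probes cut into 10 bins of mean WCE signal, inside probes had a median difference of 0.10 in the dimmest bin and -0.029 in the brightest. This depended on the arrays: Rpb4 array 1 minus Rpb3 array 1 had medians of 0.015 and -0.0002 in these bins, while Rpb4 array 1 minus Rpb3 array 2 had 0.14 and -0.052. By the median, promoter and divergent promoter probes were above inside probes of the same bin in 10 of 10 bins, and downstream probes in 9 of 10. Against inside probes weighted to the same signal bins, the excess of the means was 0.06 for promoters, 0.08 for divergent promoters and 0.04 for downstream probes. The downstream mean was -0.0016 with quantile normalization and 0.01 with scale or cyclic loess normalization, so its direction depended on the scaling. The promoter mean was then 0.04 to 0.05.

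**Figure D5:**
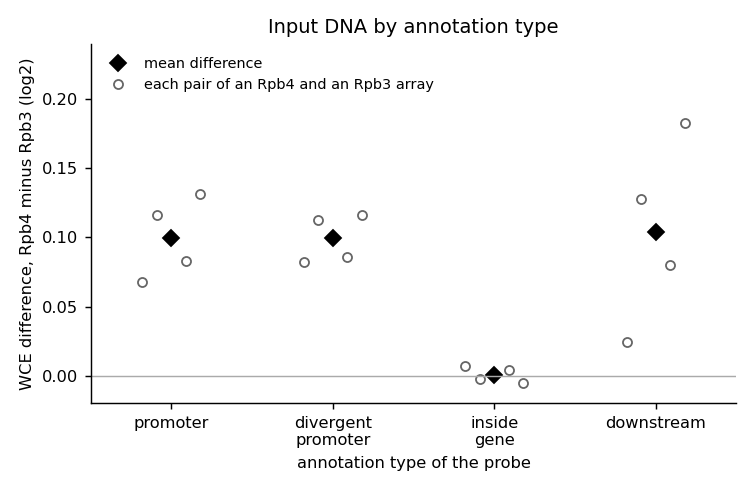
Difference in mean WCE level, Rpb4 minus Rpb3 (log2), of promoter, divergent promoter, inside and downstream probes, with a diamond for the mean and an open circle for each of the 4 pairs of an Rpb4 and an Rpb3 array. All circles of the 3 intergenic classes lie above 0, and those of inside probes lie on both sides of it.

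Gene by gene, the promoter level minus the inside level had medians of -0.28 and -0.26 in the Rpb4 arrays, against -0.33 and -0.38 in the Rpb3 arrays, over 4847 genes. The median difference was 0.09, 83.3% of genes were above 0, and 179 genes were higher in Rpb4 (3.69%) and 39 lower (0.805%). The median was 0.048 to 0.053 with quantile, scale or cyclic loess normalization. The higher count was 1641 and the lower 135 without Rpb3 array 1, the lower was 75 without Rpb3 array 2, and the higher was 94 without Rpb4 array 2. The largest differences lay at the emptied loci: PRM8 at 6.21 and TRP1 at 5.60 had low inside probes in the Rpb4 arrays, and YHL008C at 3.52 and IPP1 at 2.25 had low promoter probes in the Rpb3 arrays. In the other direction, GAL3 at -5.08 and DED1 at -2.55 have promoters that adjoin TRP1 and HIS3, TYW3 at -1.72 lies by the PRM8 locus, and YBR013C at -3.62 had a low inside probe in the Rpb3 arrays. DED1 was at 0.46 without probes under 10 times the background, a reversal, since that filter removes the emptied promoter probe.

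Consecutive called probes formed 85 runs of at least 3 higher in Rpb4, with 458 probes, and 65 runs lower in Rpb4, with 345 probes. After the COS12 run, the longest higher one covered LYS2 on chromosome 2 (469818 to 474361), with 17 probes that averaged 0.12 and 0.15 in the Rpb4 arrays, against -0.44 and -0.43 in the Rpb3 arrays. A run of 17 probes on chromosome 15 (40604 to 45066) took in FRE7, a metalloreductase gene, GRE2 and DCP1, with a mean difference of 0.48. Runs of 11 probes over MET6 and over HIS4 averaged 0.49 and 0.48. A run of 11 probes near the left end of chromosome 3 (9230 to 15899), from beside GEX1 past the silent mating locus gene HMLALPHA1 to CHA1, averaged 0.74 with 1 probe inside a gene.

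The longest run lower in Rpb4 had 14 probes on chromosome 16 (19868 to 23177), annotated to SAM3, the S-adenosylmethionine permease gene, with 1 of them inside it, and averaged 0.15 and 0.13 in the Rpb4 arrays, against 0.54 and 0.52 in the Rpb3 arrays. PDR15 followed with 11 probes at -0.55 and URA2 with 10 at -0.31. HAP1, the haem-responsive activator gene, and ASI1 to ADE17 had 9 probes each, at -0.47 and -0.50. Runs of 8 lay over TDH1, TPS2 and YEF3, the last a translation elongation factor gene, with -0.44, -0.42 and -0.42. Runs were built from called probes, so the Rpb4 and Rpb3 arrays were apart in each by construction.

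The 15 chromosomes had median differences from 0.01 to 0.03, so none of them stood apart as a whole. Calls were spread unevenly within them. In 118 windows of 100 kb a median of 3.69% of probes was called in either direction, and 13 windows passed 10%. The first 100 kb of chromosome 3 had 56 higher and 14 lower probes of 315, and chromosome 12 from 600 to 700 kb had 44 higher and 28 lower of 348. Of the 336 probes within 5 kb of the outermost probe of a chromosome, 11.6% were higher and 3.27% lower, against 2.86% and 1.79% of those more than 50 kb away. Of the 39 higher ones, 31 lay at 3 ends, the COS12 stretch on chromosome 7, the left end of chromosome 3 and the PAU19 end of chromosome 13. At the other ends 8 of 296 probes were higher, or 2.70%.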

How the data were processed

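Genomic DNA of 4 two-colour Agilent yeast arrays was used, 2 per strain, in the WCE (Cy3) channel alone. The deposited files hold WCE foreground and background intensity per spot, per the file headers, with flags for excluded probes. Agilent Feature Extraction 9.1 is named in the submitters' processing notes, while the build behind the probe coordinates is not given in the sources used here. Foreground minus background was taken to log2 after flagged probes were left out, and centred on each array's median data probe, with no loess or quantile step. Genes, promoter minus inside and 3' minus 5' values were means over probes of an array. Differences were tested with limma 3.58.1 in R 4.3.3 (lmFit, eBayes), with Benjamini-Hochberg adjustment over all data probes or genes and a threshold of 0.05, and the fits were tested on simulated data. Annotation types were compared by an exact permutation test. Gene names came from RefSeq R64 for 5263 of 5278 genes. Named genes were the 12 largest in each direction, the 2 largest and 1 smallest of each list, the markers and the 4 largest of each contrast each way; named runs were the 8 longest each way. Other genes named in the lists, loci or windows were chosen after their values were seen. The members and lists were chosen with earlier results of these data known. Other background corrections, normalizations, filters on dim probes, adjustments, spreads and each array left out were tried as alternatives. Some genes that met the naming rule are not reported here.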

Additional observations from a re-analysis of the deposited data

Results flagged for a closer look

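Outside the compared probes, chromosome 9 had a median WCE difference of -0.43 (log2, Rpb4 minus Rpb3), with 92.6% of its 1512 probes lower in Rpb4, and it is listed here because it lay beyond the measurement compared. The mitochondrial genome, likewise outside it, had a median difference of -3.33 over the 99 of its 295 probes with values on all arrays. In both cases the Rpb4 arrays had the lower medians: on chromosome 9 they were 0.06 and 0.05, against 0.46 and 0.50 in the Rpb3 arrays, and on the mitochondrial genome -6.36 and -8.13, against -4.11 and -4.38 in the Rpb3 arrays. The mitochondrial value is not a measured fold, since the median foreground of these probes was 149 and 76.5 intensity units in the Rpb4 arrays, near the blank spots, against 532 and 465 in the Rpb3 arrays.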

How the results depend on the processing

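The 4 arrays on 1 slide limit all tests. No paired analysis was possible because the labels give no replicate numbers shared by the strains. Of 943 values of 86 named genes under other settings, 897 kept their call, 32 no longer passed and 14 newly passed. None was counted as a reversed call in the gene fit. The sign of differences that did not pass could change. Of 7 histone genes, 4 were above 0 as measured and 0 with cyclic loess normalization. With an array left out, 296 of 344 values kept their call, 37 no longer passed and 11 newly passed. Leave-one-array-out counts ranged from 692 to 5264 probes higher in Rpb4 and from 339 to 2901 lower, from 75 to 396 genes higher and 39 to 398 lower, from 94 to 1641 genes higher and 27 to 135 lower for promoter minus inside, and from 2 to 64 higher and 4 to 194 lower for 3' minus 5'. With an array left out the median of the strain markers ranged from -0.083 to 0.0091, of the mating type loci from -0.0016 to 0.098 and of the proteasome from -0.063 to 0.019. The highest of the call counts came without Rpb3 array 1 and the lowest without Rpb4 array 2.

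Normexp background correction gave 744 probes higher in Rpb4, 382 genes higher and 67 lower for promoter minus inside, 5 genes higher for 3' minus 5', and type means of -0.0098 inside genes, 0.052 in promoters, 0.083 in divergent promoters and 0.041 downstream. Quantile normalization gave 1137 probes lower, 67 genes lower for promoter minus inside, 93 lower for 3' minus 5', and type means of 0.042 in promoters, 0.076 in divergent promoters and -0.0016 downstream, the last a reversal. Scale normalization gave 66 genes lower for promoter minus inside, 93 lower for 3' minus 5', and 0.047, 0.079 and 0.010. Cyclic loess gave 79 genes lower for 3' minus 5', and -0.010 inside, 0.040, 0.068 and 0.010. Centring on the member probes gave -0.011 inside. Adjustment over the member probes alone gave 494 probes lower. An intensity trend in eBayes gave 1379 probes lower. Without probes under 10 times the background, 269 genes were higher for promoter minus inside, the DED1 contrast was 0.46 and the strain marker median 0.016. The causes of the other changes were not tested. The spot position, chromosome end and signal-weighted alternatives were chosen after seeing the data.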
